A study of Mus musculus with 9 samples.

Results

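The Krüppel-like factors described here were Klf2, Klf3, Klf4, Klf5, Klf6, Klf7, Klf9, Klf10, Klf11 and Klf13. They were chosen by gene symbol, with earlier results of these data known. They are 10 of the 35275 genes listed in the table of mouse embryonic fibroblasts (MEFs) under hyperosmotic stress. All 10 passed the filter on low counts and were tested. The table lists 7 further Klf genes, of which 3 were tested. They are left out of the counts of the 10 genes and are given at the end for comparison.

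Klf proteins are transcription factors that bind GC-rich and CACCC elements of promoters through zinc fingers at their carboxy-terminal end, and the parts of the protein outside the fingers set whether they activate or repress. Klf2, Klf4, Klf5, Klf6 and Klf7 belong to a group known mainly as activators that work with histone acetyltransferases such as p300. Klf3, like Klf8 and Klf12, recruits the co-repressor CtBP, while Klf9, Klf10, Klf11 and Klf13 bind the co-repressor Sin3. In fibroblasts the family is known for serum-responsive, growth-related and TGF-beta-responsive members and, through Klf4, for reprogramming to pluripotency.

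The cells were wild type C57Bl/6 MEFs, a line kept in the laboratory and grown in DMEM with serum. Sucrose was added to the medium at 200 mM for a total of 500 mOsm, the lower stress intensity, or at 300 mM for a total of 600 mOsm, the higher one, and RNA was taken after 3 h. Cells in iso-osmolar medium with no sucrose added were the control. Each treatment had 3 poly(A) RNA libraries, 9 in all, with 21716042 to 26740832 counts per library. The labels do not say that the 3 libraries came from separate cultures, so the p-values measure only the spread between these libraries, which may be technical. Total RNA per cell was not measured here, and the values are shares of each library.

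Among 10 fibroblast markers the summed level was 20200 to 21400 CPM (counts scaled to the depth of the library) in iso-osmolar libraries, 20200 to 21100 at 500 mOsm and 22800 to 24600 at 600 mOsm, although Dcn and Lum, both fibroblast matrix genes, had 3 counts or fewer in every library. Col1a1, Col1a2, Vim and Fn1 make up nearly all of this sum, and other fibroblast genes fell: at 500 and 600 mOsm the log2 fold change was -1.27 and -0.65 for Col3a1, a collagen chain (adjusted p = 4.21e-07 and 0.000124), and -0.70 and -0.68 for Pdgfra, a growth factor receptor (adjusted p = 3.21e-05 and 4.72e-05). The 6 endothelial markers summed to 0.778 to 0.911 CPM, 12 to 13.4 CPM and 2.43 to 3.36 CPM in the same order, with Tie1 at 0 in every library. The 6 epithelial markers summed to 0.205 to 0.491, 4.04 to 4.8 and 0.348 to 0.628 CPM, with Krt5 at 0. Single genes carried most of these sums at 500 mOsm, endothelial Pecam1 with a mean of 11.1 CPM and epithelial Cdh1 with 3.47 CPM. The 5 listed blood cell and macrophage markers summed to 34.4 to 37.8, 28.6 to 30.8 and 29 to 32 CPM. Cd14, a monocyte receptor, fell at 500 mOsm from 23.2 to 11.7 CPM, while Itgam, an integrin of myeloid cells, had 0 to 2 counts in iso-osmolar libraries, 35 to 61 at 500 mOsm and 3 to 5 at 600 mOsm (log2 5.28 ± 0.55 at 500 mOsm, adjusted p = 9.25e-06), and Csf1r, the macrophage growth factor receptor, rose as well (log2 0.38 ± 0.091, adjusted p = 0.00695). In RNA from a whole dish, fewer cells of a type and less RNA per cell cannot be told apart.

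The comparisons asked how transcript levels change at each stress intensity and between the intensities. At 500 mOsm against iso-osmolar medium, 5 of the 10 Klf genes passed the threshold of edgeR's quasi-likelihood test (adjusted p under 0.05, Benjamini-Hochberg over the 13082 genes tested), where 28% of all tested genes did. Klf4 and Klf6 rose, where 13.2% of all tested genes rose, and Klf10, Klf11 and Klf13 fell, where 14.8% fell. At 600 mOsm against iso-osmolar medium 7 of 10 passed, against 35.1% of all tested genes. Klf4 rose, where 15.1% of all tested genes rose, and Klf3, Klf5, Klf6, Klf9, Klf11 and Klf13 fell, where 20% fell. Between 600 and 500 mOsm 4 of 10 passed, against 29.1% of all tested genes, and all 4, Klf3, Klf4, Klf5 and Klf6, were lower at 600 mOsm, where 17.2% of all tested genes were lower and 11.9% higher. With a log2 fold change of at least 1 asked for as well, the counts were 2, 3 and 2 of 10 in these comparisons, against 8.58%, 5.67% and 6.55% of all tested genes. Both comparisons with iso-osmolar medium use the same 3 control libraries, so their results are not independent of each other.

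The median log2 fold change of the 10 genes was -0.21 at 500 mOsm, -0.46 at 600 mOsm and -0.20 between the intensities, where the median of all tested genes was 0.013, 0.0075 and 0.0061. The median size of the log2 fold change, regardless of direction, was 0.37, 0.59 and 0.36 for the Klf genes and 0.17, 0.22 and 0.18 for all tested genes. In the comparison at 500 mOsm the values of the 2 treatments did not overlap for 6 of the 10 genes, against 40.9% of all tested genes. At 600 mOsm that count was 8 of 10, against 48.4%, and between the intensities it was 6 of 10, against 41.5%.

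**Figure D1:**
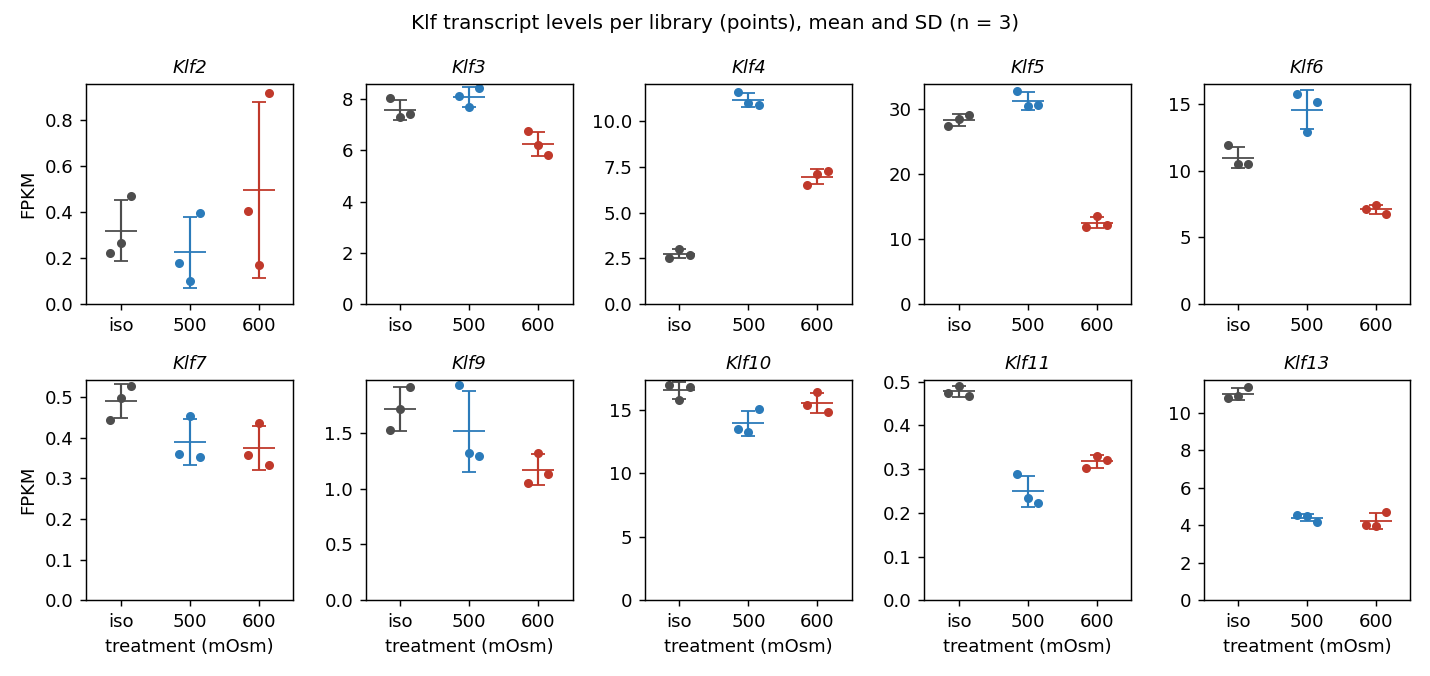
Level of each Klf gene in FPKM (reads scaled to gene length and library depth, vertical axis of each panel, from 0) in iso-osmolar medium and at 500 and 600 mOsm; points are the 3 libraries, and horizontal marks with bars are the mean and SD. Klf4 is higher at both intensities than in iso-osmolar medium, Klf13 is lower at both, and Klf5 lies between 11.9 and 13.6 FPKM at 600 mOsm, below all other libraries.

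The pattern differed from gene to gene, and 3 promoters stand for the main shapes: Klf4, higher at both intensities, Klf6, higher at 500 and lower at 600 mOsm, and Klf13, lower at both. The RefSeq promoter table (GRCm38.p6) held 8 of the 10 genes, without Klf5 and Klf10. Printed 5′ to 3′ on the strand of each gene are the 250 bases before its annotated start, for Klf4 at chr4:55532476-55532725 on the minus strand, for Klf6 at chr13:5861239-5861488 on the plus strand and for Klf13 at chr7:63938916-63939165 on the minus strand. Capitals mark matches on either strand to a GC box and a CACCC box, the elements that Klf and Sp proteins themselves bind, to an E-box and, in Klf6, to the consensus of TonEBP, the osmotic stress transcription factor.
Klf4: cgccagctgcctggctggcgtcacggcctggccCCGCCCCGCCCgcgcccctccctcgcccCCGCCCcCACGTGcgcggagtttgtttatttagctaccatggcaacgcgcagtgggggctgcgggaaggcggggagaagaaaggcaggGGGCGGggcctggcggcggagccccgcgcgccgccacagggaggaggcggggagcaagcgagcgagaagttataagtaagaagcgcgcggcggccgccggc
Klf6: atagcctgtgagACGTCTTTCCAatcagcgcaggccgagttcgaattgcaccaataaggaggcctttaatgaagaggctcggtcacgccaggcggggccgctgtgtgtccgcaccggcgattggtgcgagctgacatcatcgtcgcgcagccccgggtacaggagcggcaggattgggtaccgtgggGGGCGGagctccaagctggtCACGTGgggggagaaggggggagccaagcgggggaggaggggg
Klf13: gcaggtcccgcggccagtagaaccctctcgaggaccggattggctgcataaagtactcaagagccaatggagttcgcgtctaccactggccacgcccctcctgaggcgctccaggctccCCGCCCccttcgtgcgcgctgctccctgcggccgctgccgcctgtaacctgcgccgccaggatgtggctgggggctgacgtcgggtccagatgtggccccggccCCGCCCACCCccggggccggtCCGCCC

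The Klf4 stretch holds 4 GC boxes and 1 E-box, the Klf6 stretch 1 GC box, 1 E-box and 1 TonEBP match, and the Klf13 stretch 3 GC boxes and 1 CACCC box that overlaps a GC box. Within the 300 bases searched, which add 50 after the start, GC boxes (GGGCGG) stood in 7 of the 8 promoters, all but that of Klf9, where 63.2% of the 11910 promoters of tested genes hold one. CACCC boxes, named by their letters, stood in 5 of 8, against 63.8% of tested genes' promoters. E-boxes (CACGTG), which Myc and the clock factors bind, stood in 3 of 8, those of Klf4, Klf6 and Klf11, against 9.89%. The TonEBP match in Klf6, at positions -238 to -228 from the start on the minus strand, was the one among the 8 promoters, against 3.63% of tested genes' promoters. An AP-1 match (TGANTCA) stood in Klf9 alone, overlapping a CACCC box, against 4.98%. Neither CRE (TGACGTCA) nor the C/EBP-ATF element (TGATGCAA), the CArG box or the NF-kB consensus had a match, and these stand in 3.11%, 0.579%, 1.39% and 10.6% of tested genes' promoters. A match gives letters in a window and not a bound site, and binding was not measured. GC-rich sequence itself holds such matches: the 8 promoters had 58.3 to 77.7% G and C, in 7 of 8 above the median of 61% for tested genes.

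**Figure D2:**
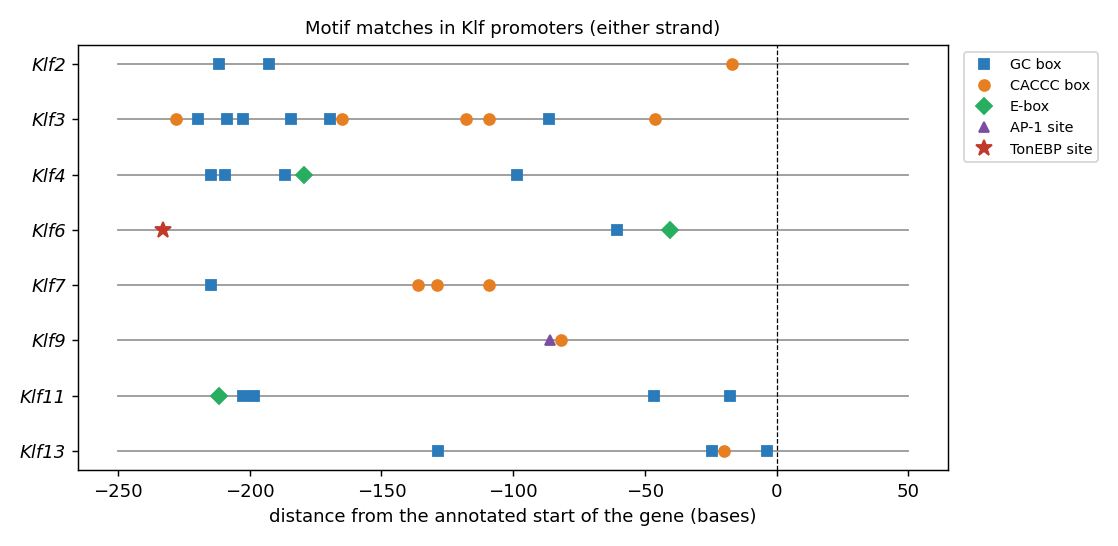
Motif matches on either strand in the promoters of 8 Klf genes (rows), by distance from the annotated start of the gene in bases (horizontal axis, start at 0). Klf3 carries the most GC boxes, 6, and the single TonEBP match lies in Klf6.

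Klf4 showed the largest rise of the 10 genes. Klf4 (ENSMUSG00000003032, a protein-coding gene on the minus strand of mm10 chr4:55527143-55532466) encodes a factor known for epithelial differentiation and as one of the reprogramming factors. Its level was 2.54, 3.02 and 2.69 FPKM in the iso-osmolar libraries, 11.6, 11 and 10.9 FPKM at 500 mOsm and 6.5, 7.11 and 7.28 FPKM at 600 mOsm. The 3 treatments did not overlap, with 500 mOsm highest and 600 mOsm between. The mean rose from 2.75 ± 0.25 to 11.2 ± 0.43 FPKM (SD, n = 3) at 500 mOsm, a fold change of 4.06 (log2 2.02 ± 0.090 SE, adjusted p = 6.18e-09, edgeR). At 600 mOsm, with a mean of 6.96 ± 0.41 FPKM, it was 2.56-fold higher than in iso-osmolar medium (log2 1.36 ± 0.091, adjusted p = 2.96e-07) and lower than at 500 mOsm (log2 -0.66 ± 0.083, adjusted p = 6.7e-05).

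Klf4 is also known from epithelial and endothelial cells, and some markers of both rose at 500 mOsm. Pecam1, an endothelial adhesion molecule, had 4 to 11 counts in iso-osmolar libraries, 265 to 314 at 500 mOsm and 31 to 53 at 600 mOsm. Cdh1, the epithelial cadherin, had 0 to 1, 86 to 91 and 1 to 4 counts. Of the tested markers, 2 of 3 endothelial and 1 of 2 epithelial ones were higher at 500 mOsm, where 13.2% of all tested genes were. Endothelial Cdh5 and epithelial Krt8 did not pass there (adjusted p = 0.927 and 0.109, edgeR). At 600 mOsm 1 endothelial marker, Pecam1, was higher, where 15.1% of all tested genes were. Their part in the Klf4 result was not tested.

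Klf5 had the highest FPKM of the 10 genes in iso-osmolar medium and at 500 mOsm, and it fell at 600 mOsm. Klf5 (ENSMUSG00000005148, plus strand, chr14:99298691-99313405) is known for supporting proliferation of epithelial and smooth muscle cells. Its level was 27.4, 28.5 and 29.2 FPKM in iso-osmolar medium, 32.9, 30.5 and 30.6 FPKM at 500 mOsm and 11.9, 13.6 and 12.2 FPKM at 600 mOsm. All libraries at 600 mOsm were below all others, and those at 500 mOsm were slightly above the iso-osmolar ones without overlap. At 600 mOsm the log2 fold change was -1.16 ± 0.066 against iso-osmolar medium (adjusted p = 7.41e-08) and -1.30 ± 0.065 against 500 mOsm (adjusted p = 2.22e-08). The difference at 500 mOsm did not pass (log2 0.14, 95% interval 0.009 to 0.279, adjusted p = 0.108).

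Klf6 was the one gene of the 10 that passed in opposite directions against iso-osmolar medium. Klf6 (ENSMUSG00000000078, plus strand, chr13:5861489-5870393) is an early response gene to injury and growth factors. Its level was 11.9, 10.5 and 10.5 FPKM in iso-osmolar medium, 15.7, 12.9 and 15.1 FPKM at 500 mOsm and 7.13, 7.41 and 6.73 FPKM at 600 mOsm. The groups did not overlap, with 500 mOsm highest and 600 mOsm lowest. It rose 1.33-fold at 500 mOsm (log2 0.41 ± 0.076, adjusted p = 0.00118) and fell at 600 mOsm (log2 -0.61 ± 0.078, adjusted p = 6.9e-05). The direct comparison of 600 with 500 mOsm gave a log2 fold change of -1.02 ± 0.077 (adjusted p = 9.41e-07).

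The other 2 members of the activator group, Klf2 and Klf7, passed in no comparison. Klf2 (ENSMUSG00000055148, plus strand, chr8:72319033-72321656), known for quiescence of endothelial cells and T cells, had 9, 12 and 21 counts in iso-osmolar medium, 8, 5 and 19 counts at 500 mOsm and 18, 7 and 45 counts at 600 mOsm. These groups overlapped, and the libraries of a treatment differed widely. The 95% interval of the log2 fold change at 600 mOsm against iso-osmolar medium ran from -0.53 to 1.91. Its adjusted p was 0.617 and 0.364 against iso-osmolar medium at 500 and 600 mOsm and 0.148 between them, and the last came to 0.0346 without replicate 2 at 600 mOsm. Klf7 (ENSMUSG00000025959, minus strand, chr1:64029447-64122282), known for axon growth in neurons, had 74 to 98, 67 to 93 and 66 to 74 counts. Its log2 fold changes were -0.33 ± 0.16 at 500 mOsm (adjusted p = 0.14), -0.37 ± 0.16 at 600 mOsm (adjusted p = 0.0856) and -0.041 ± 0.16 between them (adjusted p = 0.88), the last with an interval of -0.39 to 0.31. The 3196 exonic bases that Klf7 shares with Gm26649, a non-coding gene on the opposite strand, drew 0 counts for that gene in all libraries, and whether strand was used in counting is not stated.

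Klf3, the CtBP-recruiting factor among the 10 genes, changed little in size. Klf3 (ENSMUSG00000029178, plus strand, chr5:64803523-64830129) stood at 8.02, 7.29 and 7.41 FPKM in iso-osmolar medium, 8.12, 7.68 and 8.44 FPKM at 500 mOsm and 6.75, 6.2 and 5.82 FPKM at 600 mOsm. The libraries at 600 mOsm were below all others. It fell by 0.26 on the log2 scale at 600 mOsm (SE 0.082, adjusted p = 0.029) and was lower there than at 500 mOsm (log2 -0.35 ± 0.081, adjusted p = 0.00589), while at 500 mOsm the interval of its log2 fold change was -0.078 to 0.272. The fall against iso-osmolar medium did not pass with DESeq2 (adjusted p = 0.0561) or when 1 of 4 libraries was left out, iso-osmolar replicates 1 (0.104) and 3 (0.051) and 600 mOsm replicates 2 (0.0754) and 3 (0.106). The antisense gene Gm20033 overlaps 404 exonic bases of Klf3 and had 95 counts over all libraries.

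Among the Sin3-binding members, Klf13 fell the most and to about the same level at both intensities. Klf13 (ENSMUSG00000052040, minus strand, chr7:63886347-63938915) is known for activating the chemokine Ccl5 in T cells and for roles in heart development. Its level was 10.8, 10.9 and 11.4 FPKM in iso-osmolar medium, 4.57, 4.48 and 4.2 FPKM at 500 mOsm and 4, 3.98 and 4.73 FPKM at 600 mOsm. Stressed and control libraries lay far apart, whereas the stressed groups overlapped. The log2 fold change was -1.32 ± 0.080 at 500 mOsm (adjusted p = 9.93e-08) and -1.36 ± 0.080 at 600 mOsm (adjusted p = 9.87e-08). Between the intensities the difference was -0.042 with a 95% interval of -0.219 to 0.136 (adjusted p = 0.748).

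Klf11, a TGF-beta-inducible repressor, also fell at both intensities, from a low level. Klf11 (ENSMUSG00000020653, plus strand, chr12:24651371-24662774) had 41, 48 and 45 counts in iso-osmolar medium, 28, 25 and 23 counts at 500 mOsm and 29, 29 and 34 counts at 600 mOsm. Both stressed groups were below the control. The log2 fold change was -0.94 ± 0.19 at 500 mOsm (adjusted p = 0.00203) and -0.57 ± 0.18 at 600 mOsm (adjusted p = 0.0285). Between the intensities it was 0.37 with an interval of -0.06 to 0.80 (adjusted p = 0.201). The fall at 600 mOsm did not pass with DESeq2 (adjusted p = 0.174) or when any 1 of the 6 libraries compared was left out (0.0593 to 0.0853).

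Klf10 and Klf9 moved least in this group. Klf10 (ENSMUSG00000037465, minus strand, chr15:38294413-38300707), the other early gene induced by TGF-beta, stood at 17, 15.8 and 16.8 FPKM in iso-osmolar medium, 13.5, 13.3 and 15.1 FPKM at 500 mOsm and 15.4, 16.4 and 14.8 FPKM at 600 mOsm. Only the 500 mOsm group was apart from the control, by -0.24 ± 0.061 on the log2 scale (adjusted p = 0.00941). At 600 mOsm the difference from the control was -0.069 ± 0.061 (adjusted p = 0.409, interval -0.202 to 0.063), and the step from 500 to 600 mOsm was 0.17 ± 0.061 (adjusted p = 0.0505). Without replicate 3 at 500 mOsm that step passed (adjusted p = 0.02).

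Klf9 (ENSMUSG00000033863, plus strand, chr19:23141226-23166911), a gene induced by glucocorticoid and thyroid hormone, stood at 1.52, 1.71 and 1.91 FPKM in iso-osmolar medium, 1.93, 1.32 and 1.29 FPKM at 500 mOsm and 1.05, 1.32 and 1.13 FPKM at 600 mOsm. Replicate 1 at 500 mOsm was as high as the highest control, and the 600 mOsm libraries lay below all controls. The log2 fold change was -0.54 ± 0.17 at 600 mOsm (adjusted p = 0.0269) and -0.18 ± 0.17 at 500 mOsm (adjusted p = 0.459). The fall at 600 mOsm did not pass without iso-osmolar replicate 2 (0.0597) or 3 (0.0929) or 600 mOsm replicate 1 (0.0975) or 3 (0.0709).

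**Figure D3:**
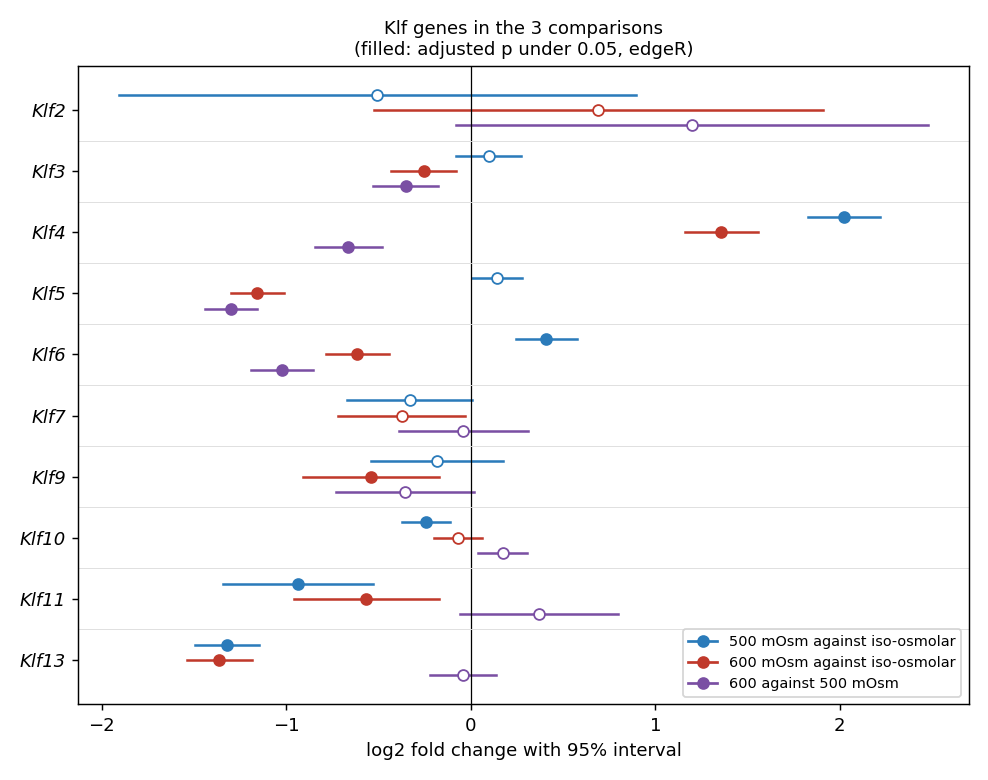
Log2 fold change of each Klf gene (rows) in the 3 comparisons, with 95% intervals as horizontal lines and filled points where the adjusted p of edgeR's quasi-likelihood test was under 0.05. Klf4 lies to the right of 0 in both comparisons with iso-osmolar medium and Klf13 to the left of 0 in both, Klf5 and Klf6 reach -1.30 and -1.02 between 600 and 500 mOsm, and the intervals of Klf2 are the widest.

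The summed level of the 10 genes, per length, was 80.3 ± 1.18 FPKM without added sucrose, 85.9 ± 3.7 FPKM at 500 mOsm and 55 ± 1.63 FPKM at 600 mOsm (SD, n = 3). The libraries spanned 79.12 to 81.49, 81.84 to 89.13 and 53.89 to 56.9 FPKM. No library at 600 mOsm reached 57 FPKM, and no other library was below 79. Klf5 made up 35.3% of the sum in control libraries, 36.5% at 500 mOsm and 22.8% at 600 mOsm. The share of Klf4 went from 3.43% to 13% and 12.7%, that of Klf13 from 13.8% to 5.15% and 7.7%, and that of Klf10 from 20.6% to 16.3% and 28.3%. These sums and shares are of the 10 genes and rest on the gene lengths of the table. The same counts divided by the main transcript lengths of GENCODE M21 gave sums of 61.7 ± 1.02, 65.7 ± 2.91 and 45.1 ± 1.31 FPKM. The share of Klf5 was then 23.6%, 24.5% and 14.3%. These values change the length alone. Reads in bases that the table's shorter models of Klf3, Klf5 and Klf9 leave out may be missing from them, so they may be too low for these genes. With Klf16, the most abundant of the other Klf genes, the sums by the table's lengths were 145 ± 5.98, 143 ± 4.14 and 113 ± 5.49 FPKM.

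**Figure D4:**
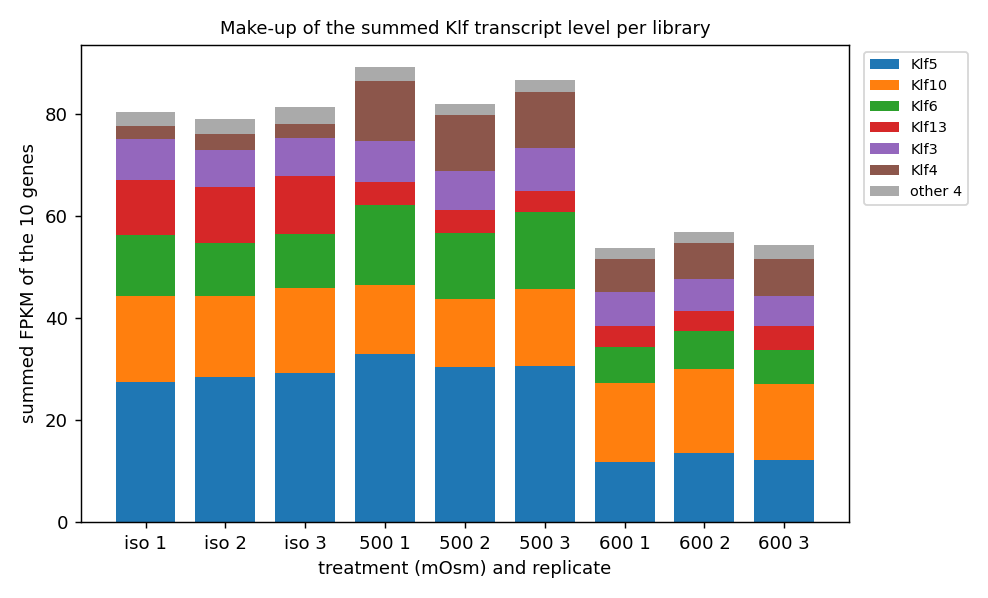
Summed FPKM of the 10 Klf genes (vertical axis, from 0) in each of the 9 libraries, stacked by gene, with the 4 lowest genes (Klf2, Klf7, Klf9 and Klf11) as one segment. The bars at 600 mOsm are the shortest, at 53.89 to 56.9 FPKM, with the Klf5 segment at 11.9 to 13.6 FPKM, and the Klf4 segment is taller in all stressed libraries.

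In iso-osmolar medium the order by mean FPKM was Klf5, Klf10, Klf13, Klf6, Klf3, Klf4, Klf9, Klf7, Klf11 and Klf2. Neighbours whose libraries overlapped were Klf13 and Klf6, Klf7 and Klf11, and Klf11 and Klf2. At 500 mOsm Klf6 and Klf4 had moved up, to follow Klf5 and Klf10, and Klf13 had moved to between Klf3 and Klf9, with overlap between Klf6 and Klf10 and between Klf11 and Klf2. At 600 mOsm Klf10, at 15.6 ± 0.79 FPKM, stood above Klf5, at 12.6 ± 0.86 FPKM, and Klf6, Klf4 and Klf3 followed at 7.09 ± 0.34, 6.96 ± 0.41 and 6.26 ± 0.47 FPKM with overlap between neighbours, as between Klf2 and Klf7 lower down. The FPKM of Klf5 rests on the gene length used. The table lists 1721 bases for Klf5, against 3352 bases for its main transcript in GENCODE M21. The gene ends at 99313405 in the table and at 99315036 in GENCODE M21. Divided by the longer length, the same counts give 14.6 FPKM in iso-osmolar medium, against 16.5 FPKM for Klf10. Reads beyond the table's end may not have been counted and would add to Klf5 under the longer model. Its place under that model is therefore not known. Klf3 likewise has 2314 bases in the table and 5221 in GENCODE M21. Its counts over the longer length give 3.36 in place of 7.57 FPKM, with the same limit. The fold changes do not use the gene length.

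The transcripts also differ in the length of their 3' UTR and in copies of ATTTA, the core of AU-rich elements, which are known to shorten the life of mRNAs. In GENCODE M21 the Klf7 3' UTR is 6266 bases long with 18 copies, Klf9 has 8, Klf3 and Klf6 have 7 each, Klf5, Klf10 and Klf11 have 4 each, Klf13 has 3 in 5157 bases, and Klf2 and Klf4 have 1 each. The median over 11802 tested genes is 1015 bases and 1 copy. Per kilobase of 3' UTR the counts lie closer together, at 2.87 for Klf7, 2.48 for Klf9 and 0.582 for Klf13, where the median of tested genes is 1.32 and the upper quartile 2.62. These counts describe the annotated transcripts, and mRNA half-lives were not measured.

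Genes whose pattern over the 9 libraries was nearest to that of Klf4, Klf13 and Klf5, the 3 Klf genes with the widest range of treatment means, were sought among 10381 genes by the distance between log2 CPM values centred on each gene's mean. Nearest to Klf4 were Fam46b (distance 0.611), which encodes a nucleotidyltransferase, Celsr2 (0.73), a cadherin of planar cell polarity, and Efna2 (0.773), an ephrin, where the median gene lay at 2.57. Fam46b stood at 6.62 ± 0.43, 25.1 ± 0.84 and 21.5 ± 1.11 FPKM in the control, at 500 mOsm and at 600 mOsm. Celsr2 and Efna2 were low, at 0.314 and 1.66 FPKM at 500 mOsm. Nearest to Klf13 were Kdm6b (0.287), a histone H3 lysine demethylase, Cx3cl1 (0.311), the chemokine fractalkine, and Unc5b (0.334), a netrin receptor, against a median of 1.96. Kdm6b stood at 16 ± 0.95, 6.56 ± 0.51 and 5.71 ± 0.086 FPKM. Nearest to Klf5 were Efnb2 (0.228), another ephrin, Rbm33 (0.26), an RNA-binding protein, and Nr4a1 (0.273), an early response nuclear receptor, against a median of 1.83. Efnb2 stood at 11.9 ± 0.21, 13 ± 0.70 and 5.06 ± 0.25 FPKM. These 9 genes were chosen for their likeness on the same libraries, so their values are a description.

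**Figure D5:**
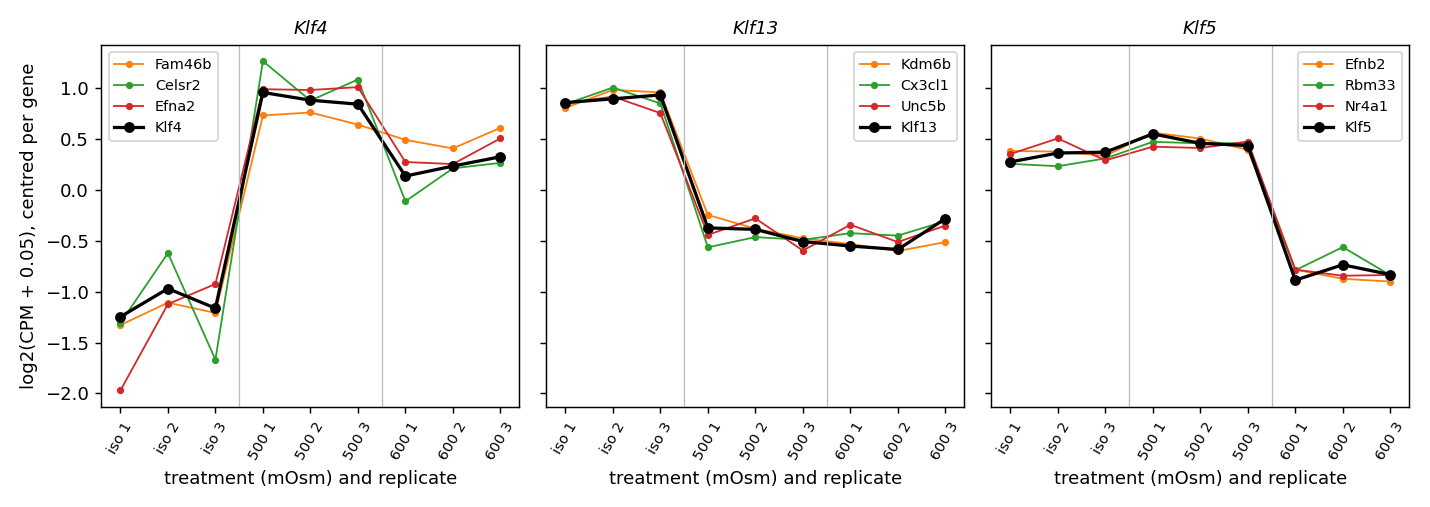
Log2(CPM + 0.05) of Klf4, Klf13 and Klf5 (black) and of the 3 genes nearest to each (coloured), centred on each gene's mean, over the 9 libraries (horizontal axis, treatment and replicate). The Klf4 set is lowest in iso-osmolar medium and highest at 500 mOsm, the Klf13 set is highest in iso-osmolar medium, and the Klf5 set drops at 600 mOsm.

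Among the 7 other Klf genes listed, 3 were tested. Klf16, a Sin3-binding repressor of GC boxes, had 64.3 ± 6.54, 57 ± 4.98 and 58.3 ± 6.42 FPKM, above Klf5 in each treatment, and passed in no comparison (log2 -0.17 with an interval of -0.39 to 0.048 at 500 mOsm). Klf1, the erythroid factor, had 9, 9 and 8 counts in iso-osmolar medium, 43, 43 and 29 at 500 mOsm and 29, 30 and 22 at 600 mOsm. It rose by a log2 fold change of 2.01 ± 0.30 at 500 mOsm (adjusted p = 0.00024) and 1.61 ± 0.32 at 600 mOsm (adjusted p = 0.0019). Klf8 did not pass, and Klf12 had 0 counts in every library. Of the 9 Sp genes, the relatives that share the zinc fingers, 4 were tested. Sp1 was lower at 500 mOsm (log2 -0.53 ± 0.091, adjusted p = 0.000663) and at 600 mOsm (log2 -0.48 ± 0.091, adjusted p = 0.00151), Sp2 was lower at 600 mOsm against iso-osmolar medium (log2 -0.36 ± 0.054, adjusted p = 0.000268) and against 500 mOsm (log2 -0.30 ± 0.054, adjusted p = 0.00107), and Sp3 and Sp4 did not pass.

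The co-regulators through which Klf proteins act were 12 genes, all tested. At 500 mOsm 1 passed, Ctbp2, which was lower. At 600 mOsm 2 were higher and 4 lower, and between the intensities 3 passed, all lower at 600 mOsm. In the same comparisons 28%, 35.1% and 29.1% of all tested genes passed. The acetyltransferase genes Ep300 and Crebbp were the most changed. Ep300 had 9.79, 9.66 and 9.7 FPKM in iso-osmolar medium, 10.3, 9.46 and 9.31 FPKM at 500 mOsm and 5.28, 5.97 and 5.39 FPKM at 600 mOsm, so that only the 600 mOsm group stood apart (log2 -0.79 ± 0.058 against iso-osmolar medium, adjusted p = 5.93e-07). Crebbp fell by 0.87 on the log2 scale in that comparison (SE 0.079, adjusted p = 4.28e-06). Ctbp2, a gene for the CtBP co-repressor that Klf3 recruits, was lower at 500 mOsm (log2 -0.40 ± 0.069, adjusted p = 0.000686) and at 600 mOsm (log2 -0.62 ± 0.070, adjusted p = 2.63e-05). Its relative Ctbp1 was far more abundant and passed in no comparison. Ctbp1 stood at 205, 220 and 202 FPKM in the control, at 500 mOsm and at 600 mOsm, against 8.85, 6.68 and 5.68 FPKM for Ctbp2. Kat2a, another acetyltransferase, and Hdac3, a deacetylase, rose slightly at 600 mOsm (log2 0.17 ± 0.053, adjusted p = 0.0288, and 0.15 ± 0.051, adjusted p = 0.0346), and neither Sin3a nor Sin3b passed.

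The Erk5 cascade and its Mef2 factors are a known route to Klf2 and Klf4. Of 6 tested genes 0 passed edgeR's test at 500 mOsm and 0 by DESeq2, and 3 were lower at 600 mOsm against both other treatments. At 500 mOsm 4 had an unadjusted p under 0.05, Map3k2, Map3k3 and Mapk7 lower and Mef2d higher. The share of all tested genes at that unadjusted threshold was not taken. Over all tested genes 28% passed edgeR's test after adjustment at 500 mOsm, where DESeq2 called 3688 genes. By edgeR 20% and 17.2% of all tested genes were lower at 600 mOsm against iso-osmolar medium and against 500 mOsm. Mef2d, one of the factors, had 27.1, 27.8 and 26.8 FPKM in iso-osmolar medium, 28.3, 29.4 and 29.9 FPKM at 500 mOsm and 19.5, 19.5 and 19.3 FPKM at 600 mOsm (log2 -0.47 ± 0.045 against iso-osmolar medium, adjusted p = 7.2e-06). Mef2a, its relative, fell by 0.92 (SE 0.15, adjusted p = 0.000392) and Map3k2, a kinase at the top of the cascade, by 0.67 (SE 0.10, adjusted p = 0.000314) on the log2 scale.

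Of 7 ubiquitin ligases known to act on Klf proteins, all tested, 3 passed at 500 mOsm and 3 at 600 mOsm, all lower than in iso-osmolar medium, and in the direct comparison of the intensities 2 stood higher at 600 mOsm and 1 lower, where 28%, 35.1% and 29.1% of all tested genes passed. Fbxw7, whose product targets Klf2 and Klf5, had 2.29, 2.17 and 2.56 FPKM in iso-osmolar medium, 1.16, 1.12 and 0.811 FPKM at 500 mOsm and 1.25, 1.49 and 1.48 FPKM at 600 mOsm. The stressed libraries were all below the control, with 500 mOsm lowest (log2 -1.18 ± 0.14, adjusted p = 3.85e-05, and -0.71 ± 0.14, adjusted p = 0.00164, at 500 and 600 mOsm), and the step from 500 to 600 mOsm was 0.47 ± 0.15 (adjusted p = 0.0307). Klf protein was not measured here.

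Genes reported elsewhere as targets of Klf proteins numbered 20, of which 15 were tested. Those not tested were Cdkn1c, Nos3, Maob, Mgmt and Trp53, the p53 gene, which had 0 to 2 counts in every library. Of those tested, 4 were higher and 5 lower at 500 mOsm, 2 were higher and 8 lower at 600 mOsm, and 1 was higher and 2 lower between the intensities. Of all tested genes 13.2% were higher and 14.8% lower at 500 mOsm, 15.1% and 20% at 600 mOsm, and 11.9% and 17.2% between them. Smad7, an inhibitor of TGF-beta signalling, had 26.7, 28.9 and 27.4 FPKM in iso-osmolar medium, 115, 111 and 106 FPKM at 500 mOsm and 13.7, 13.1 and 14 FPKM at 600 mOsm. It stood far above the control at 500 mOsm and below it at 600 mOsm (log2 2.00 ± 0.058, adjusted p = 8.95e-11, and -1.003 ± 0.059, adjusted p = 9.74e-08). Klf6 had these directions too, whereas Klf4 rose at both intensities, Klf11 and Klf13 fell at both, and Klf10 fell at 500 mOsm. The share of all tested genes with the directions of Smad7 was not taken. Cdkn1a, the cell cycle inhibitor p21, had the same directions as Smad7, with 8.46 ± 0.66, 11.4 ± 1.04 and 2.48 ± 0.36 FPKM (log2 0.44 ± 0.11, adjusted p = 0.00847, and -1.75 ± 0.12, adjusted p = 4.19e-07). At 600 mOsm Cdkn1a went opposite to Klf4. Thbd, thrombomodulin and a target of Klf2 and Klf4 in endothelium, was lower at both intensities, with 5.94 ± 0.43, 1.11 ± 0.17 and 1.3 ± 0.26 FPKM (log2 -2.42 ± 0.14, adjusted p = 7.68e-08, and -2.18 ± 0.14, adjusted p = 2.04e-07). It thus went opposite to Klf4 at both. Tgfb1, the TGF-beta ligand, fell at both intensities (log2 -0.70 ± 0.088, adjusted p = 5.85e-05, and -0.95 ± 0.090, adjusted p = 5.74e-06), at 500 mOsm opposite to Klf6. Tgfbr1 and Eng, also on the list, passed in no comparison (log2 0.009 and 0.203 at 500 mOsm). Lgals3, galectin 3, rose at 600 mOsm (log2 0.32 ± 0.062, adjusted p = 0.00158). Whether any of these genes followed Klf6, Klf4 or another Klf gene was not tested.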

How the data were processed

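RNA from 9 MEF libraries, 3 each of iso-osmolar medium, 500 mOsm and 600 mOsm, was sequenced after poly(A) selection. The authors deposited 1 table of 35275 genes with raw read counts per gene and library and with FPKM values, which the authors computed from the counts, the gene length and the library's depth. The submitters' processing notes name CASAVA 1.8, STAR and the mm10 build. The counting tool and its use of strand are not given in the sources used here. The authors' own fold changes and p-values per comparison were not used.

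The Klf genes and the lists of related genes were chosen with earlier results of these data known. The quasi-likelihood test of edgeR 4.0.16 (R 4.3.3) was run on the TMM-normalized counts of all 9 libraries, with treatment as the only term. filterByExpr left 13082 genes, over which the Benjamini-Hochberg adjustment was made at a threshold of 0.05. Standard errors and 95% intervals come from the same fit. CPM used the TMM-scaled library sizes. Alternatives were other scalings and filters, DESeq2 1.42.0, limma 3.58.1 on log2(FPKM + 1) and log2(FPKM + 0.1), stricter thresholds, a replicate block and leaving out each library. A correction for GC content and gene length was added after seeing the data. Libraries held 21716042 to 26740832 counts, and the common biological coefficient of variation was 0.0756. No pair of replicates agreed within sampling noise (chi-square per degree of freedom 5.25 to 15.9).

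The named genes were all 10 Klf genes, genes of the related lists including the one per direction with the smallest p, and the 3 genes nearest in pattern to each of the 3 Klf genes with the widest range, sought where the average log2 CPM reached at least 1. Gene models and 3' UTRs were those of GENCODE M21, shared sequence was searched with blastn 2.17.0 (at least 100 bases at 95% identity), and promoters were those of RefSeq (GRCm38.p6). The search used the main transcript of each gene and found only Gm20033 for Klf3 and Gm26649 for Klf7.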

Additional observations from a re-analysis of the deposited data

Results flagged for a closer look

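Klf6 was singled out because its difference from iso-osmolar medium had opposite signs at the 2 intensities and the direct comparison passed: it rose at 500 mOsm, fell at 600 mOsm, and the log2 fold change of 600 against 500 mOsm was -1.02 (adjusted p = 9.41e-07, edgeR's quasi-likelihood test with Benjamini-Hochberg adjustment). All 3 libraries at 500 mOsm lay above the 3 iso-osmolar libraries, and all 3 at 600 mOsm lay below them. Over 20 alternative fits the log2 fold change between the intensities ran from -1.088 to -0.941, and its largest adjusted p was 2.12e-05.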

How the results depend on the processing

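The calls of Klf4, Klf5, Klf6 and Klf13 in each comparison, and of Klf10 and Klf11 at 500 mOsm, kept their side of the 0.05 threshold in every alternative fit run. The count of Klf genes called at 500 mOsm against iso-osmolar medium was 5 in the report and 2 when a log2 fold change of at least 1 was also asked for, and 5 in every leave-one-out fit. Over all genes those leave-one-out fits called 3156 to 3895. At 600 mOsm against iso-osmolar medium the count of Klf genes was 7 in the report, 4 at an adjusted p under 0.01 and 3 with a log2 fold change of at least 1. Leaving out 1 library gave 4 to 7, with 4 without iso-osmolar replicate 3 and 4 without 600 mOsm replicate 3. Over all genes 4594 were called there in the report, 2846 at an adjusted p under 0.01, 3729 without iso-osmolar replicate 3 and 3590 without 600 mOsm replicate 3. Between the intensities the count of Klf genes was 4 in the report, 2 with a log2 fold change of at least 1, and 4 to 5 when 1 library was left out. Over all genes 2950 to 3890 were called there when 1 library was left out. The genes that were lost were Klf3, Klf9 and Klf11 at 600 mOsm, in 6, 6 and 11 of 20 alternatives. Klf10 passed between the intensities in 4 alternatives (lowest adjusted p = 0.00644, with the GC content and length correction) and Klf2 in 3 of 19 (lowest adjusted p = 0.00562, with no filter). No called value changed its sign.

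Replicate numbers are shared between the treatments in the labels, but libraries with the same number did not deviate together (mean correlation of deviations -0.242 over 9 pairs, from -0.688 to 0.611, against 0.123 over 18 pairs with different numbers, and 2 of 9 libraries correlated best with their own number). The counts under a replicate block were 5, 5 and 5: Klf9 (adjusted p = 0.0587) and Klf11 (0.0557) no longer passed at 600 mOsm and Klf2 passed between the intensities (0.0446). Over all genes the block gave 3111, 3798 and 3089 calls, against 3659, 4594 and 3810 without it. Klf2 and Klf11 had at most 48 counts in any library.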
